A study of Xenopus tropicalis with 16 samples.

Results

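The stage changes made by SUV4-20H knockdown (KD) ectoderm between gastrula and neurula were followed in the 5 libraries labelled Suv4-20H1/2 morpholino at these stages, 2 of stage NF16 and 3 of stage NF10, out of 16 libraries in the series. They were chosen by their labels alone. The tissue is the animal cap (AC) of Xenopus tropicalis, future ectoderm that is explanted at the blastula stage and cultured until sibling embryos reach the wanted stage. The NF16 KD and NF10 KD caps came from embryos injected at an early cleavage stage with morpholinos that block translation of SUV4-20H1 and SUV4-20H2. The NF16 and NF10 control caps, 2 and 3 libraries, came from embryos injected with a control morpholino (CoMo). The NF24 libraries of KD and control caps served as a later landmark. They also entered the gene filter, the scaling of levels and the test of the difference between KD and controls. Each library was made from a pool of ACs, and the labels name no further allele, agent or strain. A morpholino of this kind stops translation and leaves the mRNA in place, so the counts of the target transcripts cannot check the labels.

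Between these stages an animal cap turns from a pluripotent sheet into embryonic epidermis. At the start of gastrulation the cells hold maternal mRNAs beside the first products of the zygotic genome. By the neurula stage an isolated cap has taken on an epidermal fate, maternal messages have been cleared, and precursors of multiciliated cells, mucus-secreting goblet cells and ion-transporting cells have been set apart. SUV4-20H1 and SUV4-20H2 add methyl groups to lysine 20 of histone H4 that already carries a single one. Their loss leaves the monomethylated form in excess. RNA was taken from whole explants, so that fewer cells of a type and less RNA per cell cannot be told apart.

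The deposited values are raw counts of fragments per gene. NF16 KD replicates 1 and 2 had 21938081 and 14486551 fragments assigned to genes, and NF10 KD replicates 1, 2 and 3 had 24109111, 16588540 and 28121447. The depths of the stages therefore overlapped. Across genes the NF16 KD libraries correlated at r = 0.960 with each other, and NF10 KD libraries at 0.944 to 0.954. Between the stages r was 0.779 to 0.840, which is below each value within a stage. Fragments mapped outside genes made up 36.7% and 32.1% of mapped fragments at NF16 and 27.4%, 28.6% and 25.2% at NF10, a difference without overlap (exact two-sided permutation p = 0.2, the smallest that 2 against 3 libraries allow). This share moved with stage in controls as well, at 31.1% and 31.4% at NF16 against 22.6% to 28.7% at NF10, and its part in the results was not tested. The deposited identifiers carry no gene symbols, and 0 of 14373 matched the symbol table used here. Genes are thus described as groups and by level, at most 2 identifiers are named in each direction, and no marker of epidermis or of another cell type could be looked up.

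KD explants changed a large part of their transcriptome over this interval. Of 11997 genes tested, 4118 differed between NF16 KD and NF10 KD libraries (edgeR quasi-likelihood test, Benjamini-Hochberg adjusted p under 0.05), which is 34.3% of the genes. Levels rose for 2066 genes (17.2%) and fell for 2052 (17.1%). The stages did not overlap for 2058 of the rising and 2051 of the falling genes, beside 29.8% of all tested genes with both NF16 libraries above and 31.6% with both below the NF10 libraries. With the scaling used here, the rises were larger than the falls over all called genes, though not within each class of level at gastrula (below). The median log2 change was 2.86 among rising genes, with quartiles at 1.77 and 4.58, and -1.88 among falling genes, with quartiles at -2.49 and -1.45. A log2 change of at least 2 was reached by 1423 rising genes (68.9%) and 930 falling genes (45.3%). A log2 change of at least 4 was reached by 692 rising genes (33.5%), against 68 falling genes (3.31%), and at least 6 by 232 and 6 genes. Rising genes thus spread over a wide range of sizes, whereas falling genes lay closer together. With 0 counts in every NF10 KD library stood 14 of the rising genes, and with 0 counts in both NF16 KD libraries 6 of the falling genes. Their fitted changes are no bounds, and with these genes set at a floor of 3 counts per group the medians were still 2.86 and -1.88.

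**Figure D1:**
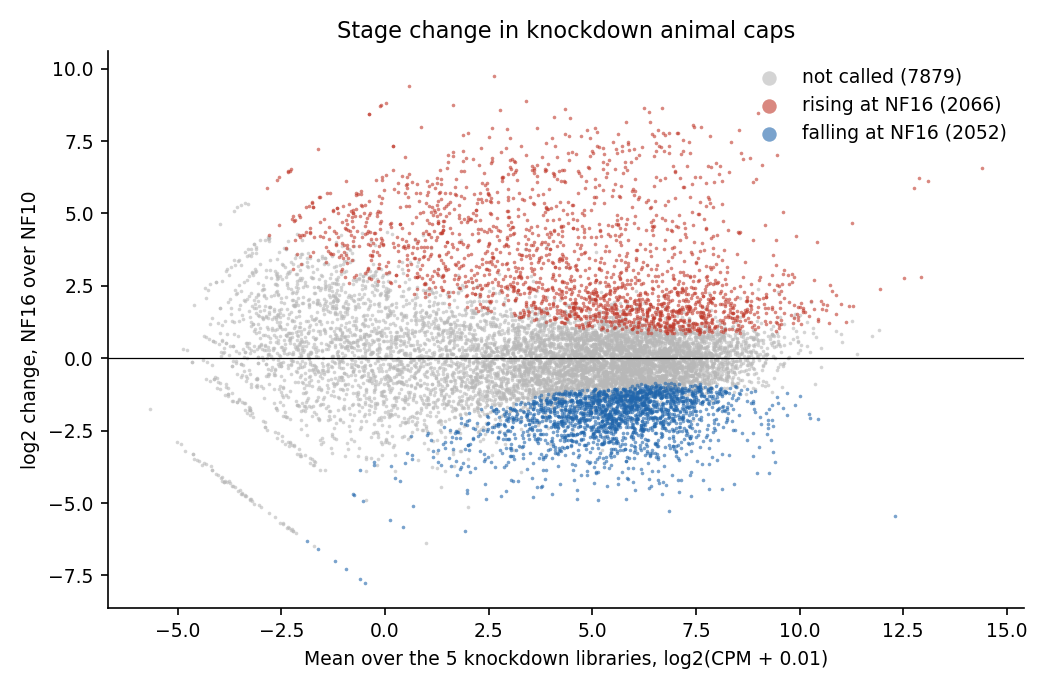
Log2 change of each of 11997 genes in KD animal caps, NF16 over NF10 (y axis), against the mean level over the 5 KD libraries (x axis, log2 scale), each point a gene. With TMM scaling, the 2066 rising genes (red) reach much larger changes than the 2052 falling genes (blue), and falling genes sit at middle and high levels.

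The balance of rises and falls depended on the scaling between libraries, and the count on the number of NF16 libraries. TMM scaling, used here, left the median log2 change of all genes at -0.02. Scaling by total counts alone moved it to -0.50 and gave 1510 rising and 3256 falling genes, so directions and sizes are given relative to the typical gene. Of the genes named below, Xetrov90006555m.g then changed by 6.09 in place of 6.58, and Xetrov90011860m.g by -2.55 in place of -2.08. That scaling thus shortens rises and lengthens falls, and the median sizes of rises and falls were not recomputed under it. Without NF16 KD replicate 1 the count of changed genes was 1224 and without NF16 KD replicate 2 it was 1758, each with the lone NF16 library assumed to vary like the NF10 ones.

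The gene that rose most among abundant genes was Xetrov90014969m.g. It stood at 266.4 and 113.1 CPM (counts per 1000000, with each library's total rescaled by TMM) in NF16 KD libraries, against 0.263, 1.02 and 0.205 CPM in NF10 KD libraries. The groups lie far apart, and the NF10 values rest on 7, 21 and 7 fragments. Its log2 change was 8.66 (SE 0.80, adjusted p = 0.000967 by edgeR). In controls it rose as well, by 7.61 (SE 1.03, adjusted p = 0.00144 by edgeR), and the difference between the changes was 1.12 (SE 1.11, adjusted p = 0.639 by edgeR). At NF24 it stood at 76.1, 82.8 and 136.7 CPM in KD and at 92.4, 84.0 and 115.3 CPM in control libraries, so the lower NF16 KD library lay within the NF24 range and the higher above it.

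The largest gain in CPM belonged to Xetrov90006555m.g. Its level was 68178 and 39031 CPM in NF16 KD libraries, against 714.6, 845.1 and 140.6 CPM in NF10 KD libraries. It ranked first in both NF16 KD libraries, where it took 5.81% and 3.33% of assigned fragments, and ranked between 48 and 1715 at NF10. NF10 replicate 3 was the lowest in both arms, since NF10 controls had 1087, 985.9 and 184.4 CPM for replicates 1, 2 and 3. The log2 change was 6.58 in KD (SE 0.91, adjusted p = 0.00213 by edgeR) and 6.77 in controls (SE 0.91, adjusted p = 0.00144 by edgeR). The difference of -0.12 had an SE of 0.99 (adjusted p = 0.971 by edgeR).

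Among falling genes, the largest log2 change of an abundant gene was that of Xetrov90027392m.g. It stood at 277.3 and 99.3 CPM in NF16 KD libraries, against 21744, 2214 and 1031 CPM in NF10 KD libraries. NF10 KD replicate 1 was about an order of magnitude above the other NF10 libraries, and so was the same-numbered NF10 control, at 15994 CPM beside 1250 and 396.6 CPM. The log2 change was -5.43 (SE 1.49, adjusted p = 0.0258 by edgeR), and -3.16 without NF10 KD replicate 1. With unstranded counts it was -2.89 and not past the threshold (adjusted p = 0.0678 by edgeR), where the 14 alternatives ranged from 1.23e-05 to 0.160. In controls, at 5684 and 58.0 CPM in NF16 libraries, the change was -0.95 (SE 1.89, adjusted p = 0.703 by edgeR). The difference between KD and controls was -4.43 (SE 2.27, adjusted p = 0.302 by edgeR). Single libraries thus set the size of this fall.

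The next loss by size in CPM, after that gene, was seen for Xetrov90011860m.g. It stood at 299.1 and 652.8 CPM in NF16 KD libraries, against 2469, 1963 and 1633 CPM in NF10 KD libraries. It was among the 9 most abundant genes of each NF10 KD library and ranked 723 and 251 at NF16. The log2 change was -2.08 (SE 0.47, adjusted p = 0.0120 by edgeR), beside -1.54 in controls (SE 0.32, adjusted p = 0.00779 by edgeR). Without NF16 KD replicate 1 the change was -1.64 and did not pass the threshold. At NF24 the level was 122.5 to 188.2 CPM in KD and 180.0 to 225.7 CPM in control libraries, below each NF16 value.

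**Figure D2:**
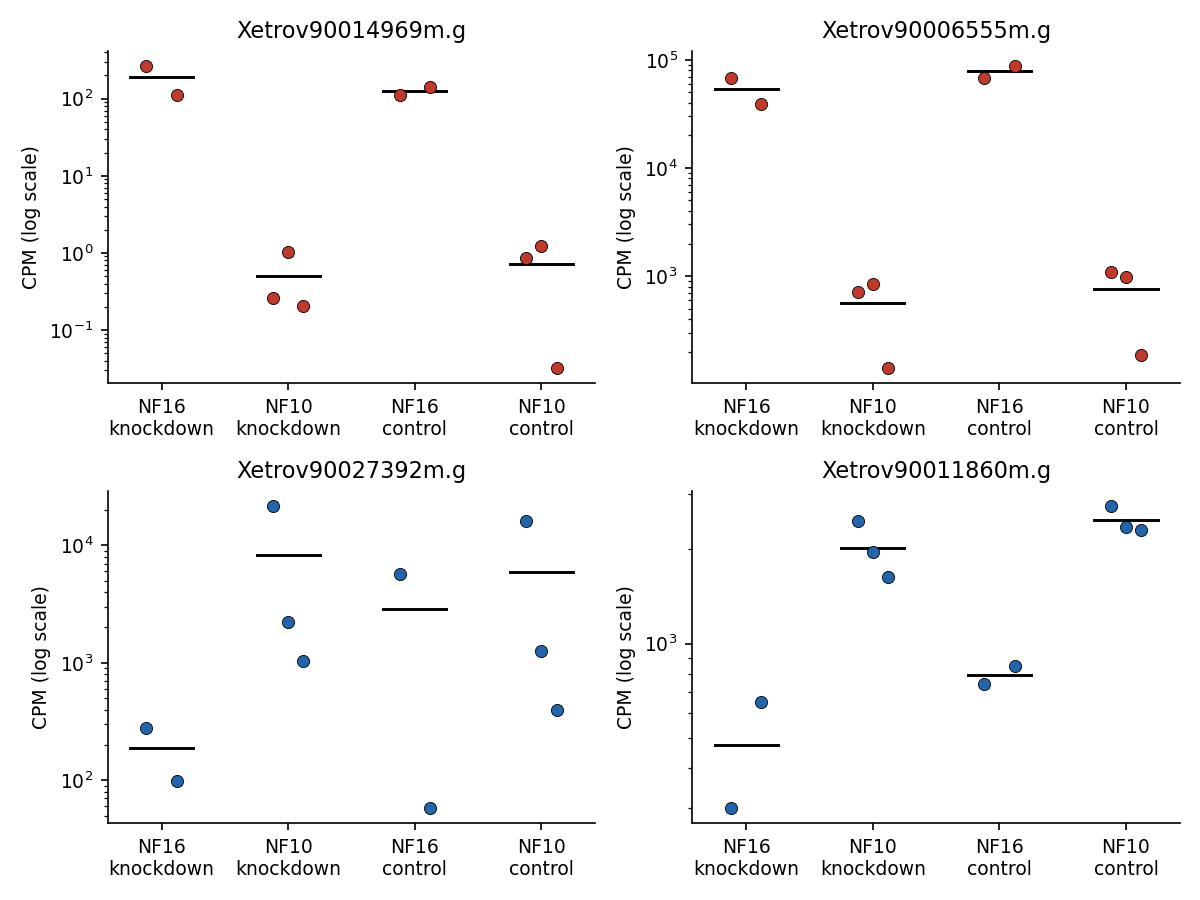
Level of the 4 named genes in each library, in CPM on a log axis, for NF16 KD, NF10 KD, NF16 control and NF10 control caps (points, libraries; bars, group means). In KD libraries no NF16 value overlaps an NF10 value for any of the 4 genes, which the rule that chose them required. Xetrov90027392m.g spans a wide range within the NF10 groups and the NF16 controls.

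Transcripts became concentrated on fewer genes. At NF16 KD, 479 and 488 genes held 50% of the assigned fragments, against 928, 1138 and 1162 genes at NF10 KD. The 10 most abundant genes of a library took 15.5% and 12.3% at NF16 and 5.56%, 2.45% and 2.08% at NF10. Both measures separated the stages without overlap (exact two-sided permutation p = 0.2 each, the smallest possible, and 0.32 after adjustment over 8 such values). In controls the corresponding numbers were 397 and 389 genes at NF16 against 856, 1104 and 1110 at NF10. Genes with at least 1 CPM, here by plain library totals without TMM, numbered 10277 and 10156 at NF16 KD, against 9783, 9994 and 9791 at NF10 KD. More genes were thus seen at this level although fewer of them dominated.

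Most of this shift lay in the genes called rising. As a description of genes chosen on these libraries, rising genes held 51.6% and 45.7% of fragments in NF16 KD libraries, against 14.6%, 11.8% and 11.1% in NF10 KD libraries. Falling genes held 5.19% and 6.08% at NF16 KD, against 26.3%, 30.5% and 28.2% at NF10 KD. The 10 genes with the largest gains alone made up 15.4% and 11.8% at NF16 KD and at most 1.54% at NF10 KD. Intervals of these shares (95% Wilson) were no wider than 0.0257 percentage points to either side in the KD libraries and cover counting error only. In the control libraries, which did not choose these genes, the rising set held 57.0% and 56.9% at NF16 and 16.4%, 12.5% and 11.7% at NF10. The falling set held 5.69% and 4.76% at NF16 and 23.8% to 30.0% at NF10. For the falling set the NF16 KD and NF16 control shares overlapped, and for the rising set each NF16 KD library lay below each NF16 control. At NF24 the rising set stood at 51.8% to 53.2% in KD and 51.5% to 52.7% in controls, with overlap, in libraries with 43.3% to 54.2% and 39.3% to 47.7% of mapped fragments outside genes.

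**Figure D3:**
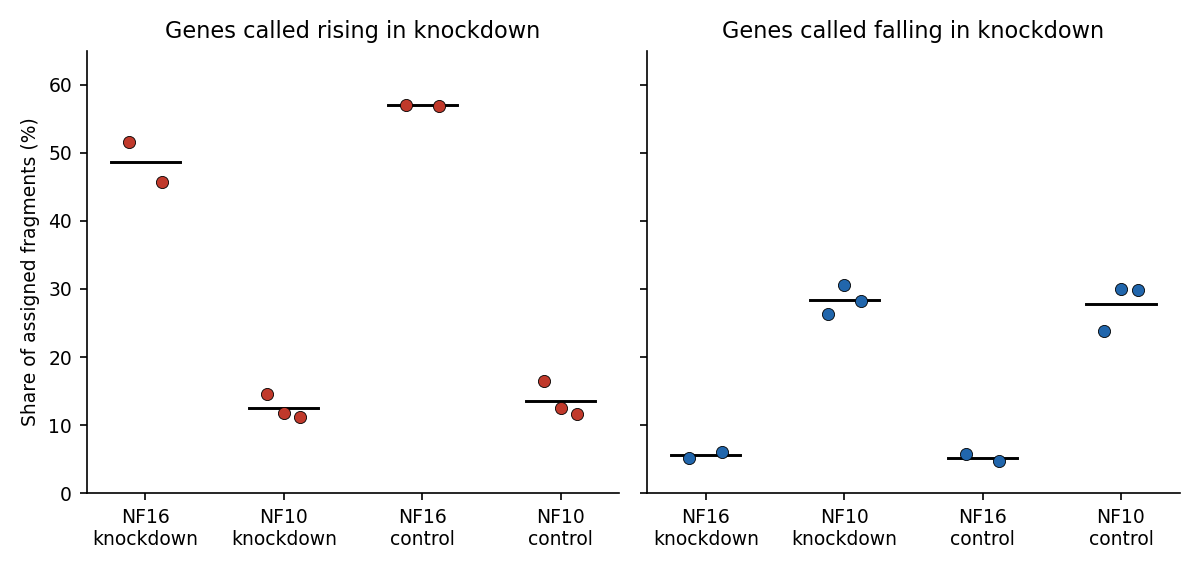
Share of assigned fragments, in percent, held by genes called rising (left) and falling (right) in KD caps, for each library of 4 groups (points) with the group mean (bar). The rising set goes to 51.6% and 45.7% in NF16 KD caps, below both NF16 controls at 57.0% and 56.9%, while the falling set drops to a like share in both arms.

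The most abundant transcripts were partly exchanged. Of the 100 genes highest on average at NF16 KD, 42 were also among the 100 highest at NF10 KD, and 72 were among the 100 highest of NF16 controls. In controls 35 of 100 were shared between NF16 and NF10. Of the NF16 KD top 100, 73 had been called rising and 0 falling. The KD top lists were picked on libraries that also made the calls. That choice favours rising genes at NF16 KD and falling genes at NF10 KD. Of the NF10 KD top 100, 33 were called falling and 21 rising, beside 17.1% and 17.2% of all tested genes. Genes at 100 CPM or more in NF10 controls were called falling in 29.0% and rising in 11.8% of cases. The falling share was thus near that of abundant genes, and the rising share above it.

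The direction of change followed the level at gastrula. Genes were sorted by their mean in NF10 controls. These libraries are not in the KD comparison, but same-numbered NF10 control and NF10 KD libraries deviated together (r = 0.701 to 0.820 across genes), so the classes are not independent of the NF10 KD levels. Of 2137 genes under 1 CPM, 602 (28.2%) rose in KD caps and 9 (0.421%) fell. Of 2237 genes between 1 and 10 CPM, 518 (23.2%) rose and 108 (4.83%) fell. From 10 to 100 CPM, 657 of 5173 genes (12.7%) rose and 1224 (23.7%) fell. At 100 CPM or more, 289 of 2450 genes (11.8%) rose and 711 (29.0%) fell. These shares stand beside 17.2% rising and 17.1% falling over all tested genes. Genes of low level can hardly be called falling, because their counts are near the floor. The sizes of called genes followed level in both directions. At low counts only large changes can pass the threshold, so this order is partly set by the test. From the lowest class to the highest, the median rise was 4.87, 3.40, 1.87 and 1.57 and the median fall was -4.94, -2.74, -1.89 and -1.74 on the log2 scale. The fall of -4.94 rests on 9 genes. Median rises were larger in size than median falls only in the class from 1 to 10 CPM. The larger rises over all called genes thus did not hold in each class. What the few falls called at low level added to that gap was not tested.

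**Figure D4:**
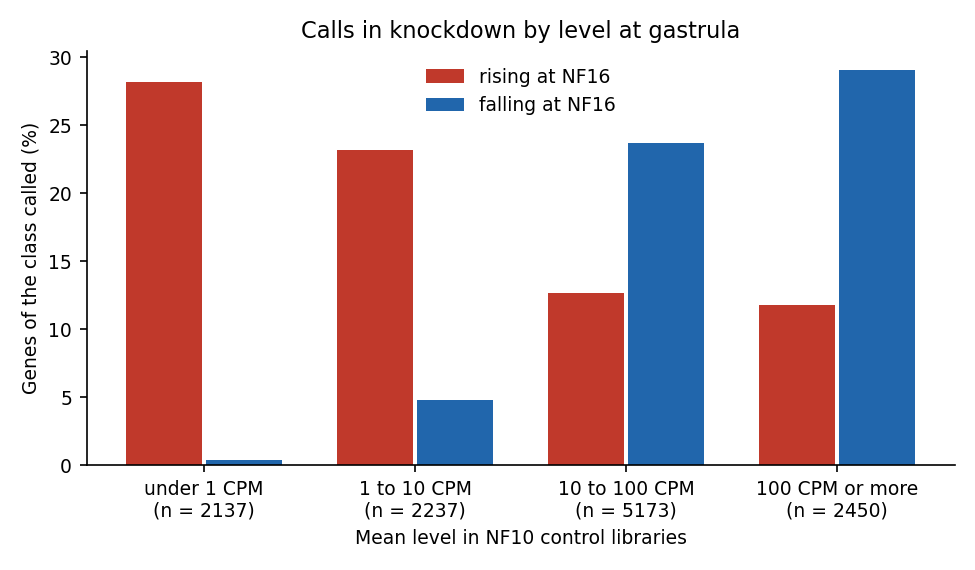
Percent of genes called rising (red) or falling (blue) in KD caps, NF16 against NF10 (y axis), in 4 classes of mean level in NF10 controls (x axis, with the number of genes). Rises go down over the classes, 28.2%, 23.2%, 12.7% and 11.8%, and falls go up, 0.421%, 4.83%, 23.7% and 29.0%.

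Few genes went from no signal to a clear signal. In the NF10 KD libraries 1188 of the 14373 genes had 0 counts throughout, which allows up to 0.0369 CPM (3 counts over the group). Of these, 439 had a count in an NF16 KD library, and 19 reached a mean of 1 CPM with at least 3 counts in each. Their NF16 KD means were 1.02 to 3.75 CPM with a median of 1.89, at least 27.6-fold higher than the floor. All 19 therefore stayed low, and 6 of them passed the filter of the test. Of the 19 genes, 3 also had 0 counts in the NF10 controls, and 13 reached a mean of 1 CPM in NF16 controls. By the same limits 51 of 1304 genes with 0 counts in NF10 controls came up in NF16 controls, and 1 gene was in both sets. Without NF10 KD replicate 1, 2 or 3 the 19 became 29, 39 and 30, and without NF16 KD replicate 2 they became 35, so this list depended on single libraries. The reverse, at least 1 CPM and 3 counts per library at NF10 KD and 0 counts in both NF16 KD libraries, held for 2 genes.

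To ask how far the KD caps shared the normal course, the same interval was tested in the 5 control libraries, none of which enters the KD comparison. There 5671 genes changed (47.3%), 3035 upwards (25.3%) and 2636 downwards (22%). With scaling by total counts alone the split was 2175 upwards and 4324 downwards. Of the 4118 genes called in KD, 3347 (81.3%) were called in the same direction in controls, 761 were not called and 10 were called in the opposite direction. By sign alone, 2025 of the 2066 rising genes (98.0%) and 1984 of the 2052 falling genes (96.7%) moved the same way in controls. Over all tested genes the signs matched for 81.6%, and over genes called in neither arm for 67.6%. The comparisons are not independent, since same-numbered NF10 KD and NF10 control libraries deviated together, as given above. A landmark further on gave a like picture. From NF10 to NF24 in controls, 1940 of the KD rising genes (93.9%) were higher and 1903 of the falling genes (92.7%) lower, beside 50.8% and 49.2% of all tested genes.

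With TMM scaling, among genes called in KD, the steps were shorter in KD for rising genes, and less clearly so for falling ones. Although they were chosen in KD, the rising genes had a median log2 change of 2.86 in KD and 3.33 in controls, and the control estimate was the larger for 1341 of 2066 (64.9%). The falling genes had medians of -1.88 in KD and -1.93 in controls, with the control estimate further down for 1032 of 2052 (50.3%). Among the 3347 genes called alike in both arms, the KD estimate was the smaller for 2359 (70.5%). These sizes depend on the scaling, which acted unequally on the arms. Under total counts alone, the typical (median) gene stood at -0.50 in KD and -0.69 in controls, against -0.02 and 0.001 under TMM. The larger downward shift in controls would bring the rises of the arms closer and set their falls further apart. The contrast between rising and falling genes is thus given for TMM only, and it was not recomputed under total counts. Whether a single gene differed was tested as the difference of the 2 stage changes over all 16 libraries. This test called 500 of 11997 genes (4.17%), 188 with the KD change higher (1.57%) and 312 with it lower (2.6%). With scaling by total counts alone these were 264 and 252. It called 176 of the 3347 genes (5.26%), and for 174 of these the KD change was the smaller. This fit does not use the replicate numbers. With a replicate block within each stage the test called 2165 genes, 18.0% of all tested. Among them were 599 of the 2359 with the smaller KD estimate (25.4%). With a block at NF10 only, added after seeing the data, it called 1464 genes, 12.2% of all tested. Of the 2359 genes these held 423 (17.9%). DESeq2 called 1365 genes. The count thus depended on the fit, and in each of the 3 edgeR fits most of the 2359 genes did not pass. On simulated counts the fit without a block recovered only 12.5% of genes with a true log2 difference of 2. That simulation changed 200 of 11997 genes in NF16 KD, all drawn above a floor of mean CPM, and held no other stage change. In the data 2381 of 11997 genes (19.8%) had p under 0.05 by edgeR before adjustment. The share recovered in the data may therefore be another. A gene that did not pass is still not shown to change alike in both arms. Without NF16 control replicate 1 the test called 57 genes, without NF16 control replicate 2 221, without NF10 control replicate 3 289, and without NF16 KD replicate 1 or 2 128 and 105.

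A graded view was obtained by sorting genes on the control change from NF10 to NF24, which uses no KD library. For the 698 genes that rose by a log2 of at least 6 up to NF24, the median change at NF16 was 4.59 in KD and 6.89 in controls, and 498 (71.3%) were called rising in KD, beside 17.2% of all tested genes. For the 721 genes between 4 and 6 the medians were 2.73 and 4.25, and 360 (49.9%) were called rising. For the 1361 genes between 2 and 4 they were 1.51 and 2.34, with 497 (36.5%) called rising. On the falling side, 416 genes that lost more than 4 up to NF24 had medians of -2.14 in KD and -3.30 in controls, and 266 (63.9%) were called falling in KD, beside 17.1% of all tested genes. For the 1390 genes between -4 and -2 the medians were -1.37 and -2.05, with 654 (47.1%) called falling. In each of these bins the KD median had the control sign and a smaller size. The control medians share the NF10 controls with the sorting, which favours larger values there. Of the rising genes, 950 (46.0%) had an NF16 KD mean at or above the NF24 control mean, beside 1283 (62.1%) for the NF16 control mean. Of the falling genes 1043 (50.8%) were at or below the NF24 level in NF16 KD and 1100 (53.6%) in NF16 controls. These shares were not taken over all tested genes, so they compare the arms only.

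Changes called in KD and not in controls were 468 falling and 293 rising genes. In controls these genes mostly had weaker changes of the same sign. Choosing genes called in KD and not in controls favours smaller control changes by itself. The median log2 change of the 468 genes was -1.66 in KD and -0.75 in controls, and 409 of them (87.4%) were lower by sign in controls. For the 293 genes it was 1.73 and 0.85, and 253 (86.3%) were higher by sign. Over all tested genes the signs of both arms matched for 81.6%, so the shares of 87.4% and 86.3% were not far above that. The test of the difference called 34 of the 468 (7.26%) and 9 of the 293 genes (3.07%), beside 4.17% of all tested genes, and the KD change was then further in its own direction. The other way round, 2314 genes were called in controls only, and the test of the difference called 258 of them (11.1%). In KD these had median log2 changes of 0.82 for the 1254 that rose in controls and -0.71 for the 1060 that fell. The control medians were 2.43 and -1.59, and here the choice favours smaller KD changes.

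A turn in the opposite direction was rare. It was seen for 9 genes that fell in KD, with a median log2 change of -1.69, and rose in controls, with a median of 1.57. A single gene rose in KD and fell in controls. The test of the difference called 9 of these 10 genes, beside 4.17% of all tested genes. They were chosen for opposite changes in libraries that this test also uses, so its outcome was nearly fixed in advance.

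**Figure D5:**
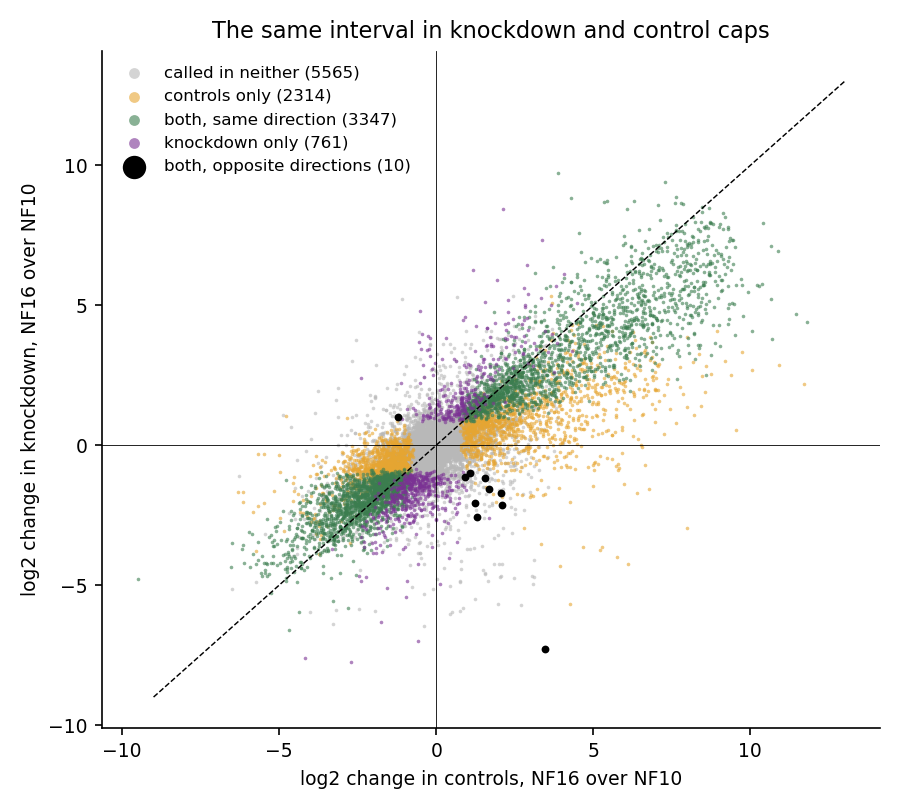
Log2 change from NF10 to NF16 in KD caps (y axis) against that in control caps (x axis) for 11997 genes, each point a gene, coloured by where it was called, with a dashed line of equal change. Most called genes lie in the quadrants of matching sign, 3347 of them called alike, strongly rising genes lie mostly below the dashed line, and 10 genes (black) were called in opposite directions.

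The NF16 KD libraries had not moved equally far. Over the 3035 genes that rose in controls, a list that uses no KD library, NF16 KD replicate 1 lay a median log2 of 1.95 above the mean NF10 KD library and replicate 2 lay 1.77 above it. Over the 2636 genes that fell in controls the medians were -1.53 for replicate 1 and -1.34 for replicate 2. Replicate 1 was the lower of the pair for 1735 of the falling genes (65.8%), beside 52.5% of all tested genes. It was the higher for 1664 of the rising genes (54.8%), beside 47.5% of all. In both directions replicate 1 was thus further from gastrula, and it was also the library with the larger share of fragments outside genes. Whether the libraries of the 2 stages came from the same clutches or preparations is not given in the sources used here, so stage and preparation cannot be told apart.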

How the data were processed

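Total RNA of cultured caps was sequenced with a directional kit after rRNA removal. The deposited values are raw counts per gene that the authors obtained with STAR (2.4.2a per the labels) over Xenbase gene models of X. tropicalis assembly v9.1. Fragments with several positions were not counted (multimapping tally 0), so near-identical genes may be undercounted. The strand column with the larger total was used, and genes with at least 1 read in 75% of 16 libraries (12) were kept, 11997 of 14373. Groups came from the titles. Changes were tested with edgeR 4.0.16 in R 4.3.3 (quasi-likelihood, TMM, Benjamini-Hochberg, adjusted p under 0.05), NF16 against NF10 within each arm, and as an interaction over all libraries. SE was taken as the change over the square root of F. CPM, counts per 1000000, used TMM over all libraries, except in the number of genes with at least 1 CPM per library, which used plain totals. Correlations used log2 CPM with a prior count of 2. P-values measure the spread between these libraries, given as biological replicates with no clutch stated. Libraries of a group differed by more than counting noise (chi-square per degree of freedom at least 49.8 over the pairs within groups). Same-numbered KD and control libraries deviated together at NF10 (r = 0.802, 0.820 and 0.701) and NF24 (0.390, 0.217 and 0.520) and not at NF16 (-0.141 for both). Numbers are those of the titles, and the deposited NF16 files carry others. Named genes had adjusted p under 0.05, at least 50 CPM at the higher stage and no overlap, and led by log2 change or by CPM change in each direction (the next by CPM where both picked the same gene). Members and lists were chosen with earlier results of these data known. Gene lists and cell type markers were not analysed here, since 0 identifiers matched RefSeq symbols. On simulated counts of 11997 genes with 200 changed by a log2 of 2, the test recovered 61.5% for KD, 56.5% for controls and 12.5% for the interaction, with 3, 8 and 2 unchanged genes called. The 200 genes were drawn above a floor of mean CPM, so recovery at low level was not measured. Alternatives were DESeq2 1.42.0, other scalings, filters and count columns, all groups in 1 fit, a replicate block, thinning, a minimum change and leaving out each library.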

Additional observations from a re-analysis of the deposited data

Results flagged for a closer look

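The stage change from NF10 to NF16 differed between KD and control caps for 500 genes in the test of the difference itself, 188 with the KD change higher and 312 with it lower. Of the 500 genes, 228 (45.6%) were also called in KD, beside 34.3% of all tested genes. Both tests use the NF16 KD and NF10 KD libraries, which favours such an overlap by itself. The count was 2165 with a replicate block within each stage.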

How the results depend on the processing

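In KD the count of changed genes (4118) stayed within 1.5 times under 12 of 15 alternatives and was 2115 with a minimum log2 change of 1. With each library left out in turn it lay between 1224 and 4182. For controls (5671) the minimum log2 change of 1 gave 3578, and leaving out each library gave 2836 to 6212. The difference of stage changes (500) was 1365 with DESeq2, 253 with only the 4 groups of NF10 and NF16, 2165 with a replicate block within each stage and 1464 with a block at NF10 only (chosen after seeing the data), and lay between 57 and 554 with each library left out. These 4 fits shared 499, 226, 497 and 500 genes with the 500. Under total counts alone it split into 264 higher and 252 lower. The cause of these shifts was not tested, apart from fewer libraries in the fits that leave some out.

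Genes silent at NF10 KD (19) were 35 at a mean of at least 0.5 CPM and 0 at 5 CPM, both by construction, and 14 to 39 with a library left out. The share of KD-called genes moving the same way in controls (97.4%) was 98.2% under total counts alone. Of the named genes, both rising ones kept their call in all 14 alternatives each. Xetrov90027392m.g lost it with unstranded counts and without either NF16 KD library, and Xetrov90011860m.g without NF16 KD replicate 1.

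Replicate numbers of the titles did not pair the stages: deviations of same-numbered NF16 and NF10 KD libraries correlated at -0.0846 and 0.0111, and no pair of numbers above 0.105. With the replicate block 3548 genes were called in KD, 3210 of them shared, and 4802 in controls. That block leaves NF10 replicate 3 without a partner. With 2 NF16 libraries, smaller changes and genes of low level may have gone undetected.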
